A study of Mus musculus with 6 samples.

Results

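Matrix metalloproteinases (Mmp), the Adamts and Adamts-like (Adamtsl) genes and the tissue inhibitors of metalloproteinases (Timp) were followed in mouse skin without Sox4. Members were chosen by symbol alone: Mmp followed by a digit, Adamts followed by a digit or l, and Timp followed by a digit, in a RefSeq table of assembly GRCm38.p6. The rule finds 51 genes, of which 49 have at least 1 named probe on the array, with 64 probes between them. Of these, 28 genes were bright enough to be tested, among 22823 genes and unnamed transcripts tested on the whole array. Mmp27 and Adamtsl5 have no probe named here and were not analysed.

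The data are 1-colour Agilent arrays of skin RNA from 6 untreated male mice of mixed C57Bl6/129Sv background (75:25). All mice are labelled as in telogen, when hair follicles rest. The comparison asks what the transcription factor Sox4 contributes to skin at that stage. The Sox4 conditional knockout in skin (KO) has 3 mice aged 17, 18 and 16 weeks (replicates 1, 2 and 3). The wildtype group (WT) has 3 mice aged 20, 19 and 18 weeks, so the KO mice were on average younger. The labels do not name the Cre driver, nor the cells in which the deletion acts, and give no alleles for the WT mice beyond that word.

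Mmps are zinc-dependent proteases that together cleave most components of the extracellular matrix. They are made as inactive proenzymes, and Timps bind the active site of the mature enzyme and block it. Adamts proteases carry thrombospondin repeats and cut proteoglycans, procollagens and other matrix proteins, while Adamtsl proteins share their ancillary domains and lack the protease domain. In skin these genes are known from wound repair, from dermal collagen turnover and from the remodelling around growing and regressing hair follicles.

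Sequence upstream of the start sites was compared between one block of Mmp genes and the other members that have a promoter window in the RefSeq table. On chromosome 9 the RefSeq table lists 10 Mmp genes in 1 uninterrupted run, with 3 other annotated genes and 0 other protein-coding genes among them, in the order Mmp13, Mmp12, Mmp1b, Mmp3, Mmp1a, Mmp10, Mmp8, Mmp27, Mmp20 and Mmp7. The 250 bases upstream of annotated starts were searched on both strands for the AP-1 motif TGANTCA, the site bound by Fos and Jun dimers in many Mmp promoters, for TATAAA and for the Sox core motif AACAAAG. Windows exist for 36 of the 51 members: all 10 genes of the run and 26 of the other 41. Mmp2, Mmp9, Adamtsl1, Adamts4, Adamts5, Mmp17 and Mmp19 are among the 15 without one. The AP-1 letters occur in 8 of the 12 windows of the chromosome 9 genes and in 0 of the 27 windows of the other members, against 6.75% of all 32851 windows in the table. TATAAA lies in 7 of these 12 windows and in 3 of the 27, against 12.4% of all windows. The 7 windows with TATAAA also hold the AP-1 letters. The GC content has a median of 40.2% in the 12 windows (37.2% to 53.2%) and of 64.4% in the 27 windows (53.6% to 80%). AACAAAG occurs in 2 windows, 1 of Mmp12 and 1 of Mmp8, which is 5.13% of the members' 39 windows against 5.03% of all windows. A match describes letters only, and its absence says only that these letters are not in the window. TGANTCA reads the same on both strands and cannot share a base with TATAAA, while TGANTCA and AACAAAG can share an end base.

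The last 100 bases before the annotated start are shown for the 8 chromosome 9 genes with the motif, since only 1 of them, Mmp3, was bright enough to be tested in these skins. Sequences run 5′ to 3′ on the gene's strand, from RefSeq (GRCm38.p6), and capitals mark TGANTCA.
Mmp3, chr9:7445722-7445821, plus strand: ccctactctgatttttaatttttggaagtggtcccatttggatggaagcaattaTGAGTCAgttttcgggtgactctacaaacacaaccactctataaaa
Mmp10, chr9:7502242-7502341, plus strand: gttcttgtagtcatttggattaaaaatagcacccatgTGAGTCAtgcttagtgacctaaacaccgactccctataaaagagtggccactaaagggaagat
Mmp13, chr9:7272414-7272513, plus strand: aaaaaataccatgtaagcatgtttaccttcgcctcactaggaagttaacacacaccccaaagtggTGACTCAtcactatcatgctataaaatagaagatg
Mmp12, chr9:7347274-7347373, plus strand: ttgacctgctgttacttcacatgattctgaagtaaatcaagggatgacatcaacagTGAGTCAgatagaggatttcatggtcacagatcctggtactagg
Mmp1a, chr9:7464041-7464140, plus strand: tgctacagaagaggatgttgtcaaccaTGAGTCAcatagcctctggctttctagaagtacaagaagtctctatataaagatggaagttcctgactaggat
Mmp1b, chr9:7388027-7388126, minus strand: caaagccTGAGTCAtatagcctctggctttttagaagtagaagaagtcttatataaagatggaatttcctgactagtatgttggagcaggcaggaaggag
Mmp7, chr9:7691990-7692089, plus strand: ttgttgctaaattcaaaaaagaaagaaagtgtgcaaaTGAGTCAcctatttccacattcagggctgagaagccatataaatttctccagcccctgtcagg
Mmp20, chr9:7628131-7628230, plus strand: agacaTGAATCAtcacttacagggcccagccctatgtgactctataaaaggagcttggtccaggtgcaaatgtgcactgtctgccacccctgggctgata
For contrast, the same stretch of Adamts18, the member with the smallest p in the comparison of genotypes, holds none of the 3 motifs.
Adamts18, chr8:113848840-113848939, minus strand: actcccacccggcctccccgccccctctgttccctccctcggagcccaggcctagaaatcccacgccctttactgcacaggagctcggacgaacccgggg

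**Figure D1:**
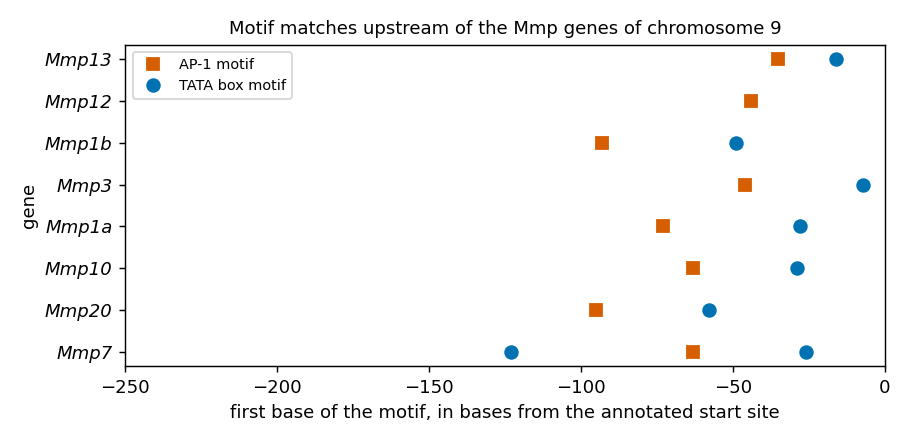
Matches to the AP-1 motif (squares) and to the TATA box motif (circles) in the 250 bases upstream of the Mmp genes of chromosome 9, by the distance of the match's first base from the annotated start site. The AP-1 match lies between 95 and 35 bases upstream in the 8 genes; Mmp8 and Mmp27 have neither match and are not drawn.

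Whole-array facts that bear on these genes are few. Between 52.1% and 66.4% of probes were well above background per array, no spot was saturated, and the 75th percentile of the signal ran from 379.8 to 605.5 units. Sox4 read 78.7, 69.0 and 59.5 units in KO against 503.7, 764.2 and 735.2 units in WT, a log2 fold change of -3.56 (SE 0.13; limma adjusted p = 0.00135). The arrays sat on 3 slides: slide 1 held KO replicate 3 and WT replicate 1, slide 2 held KO replicate 1 and WT replicates 2 and 3, and slide 3 held KO replicate 2 alone. Cell markers also differed. All 22 skeletal muscle markers tested (of 22 listed) had positive fold changes, and 0 were called. Of these, 18 lay higher in KO without overlap (81.8%, against 7.56% of all genes). The summed level of the 22 was 3777 to 5027 in KO and 898.7 to 3265 in WT, in multiples of the array's 75th percentile. Their median score relative to the WT mean was 1.77, 2.07 and 1.52 log2 in KO replicates 1, 2 and 3, against 1.17, -0.34 and -0.75 in WT replicates 1, 2 and 3. Hair shaft and inner root sheath markers (18 of 24 tested) summed to 347.4, 231.8 and 16.0 in KO and to 15.6 to 22.0 in WT, so KO replicates 1 and 2 stood apart. Whether these skins were at the labelled hair stage was not tested. For T and NK cell markers, all 12 tested (of 16 listed) had negative fold changes, against 64.1% of all genes. Of the 12, 10 lay lower in KO without overlap (83.3%, against 11.8% of all genes). Only 1, Cd3g, a T cell receptor subunit, was called (log2 fold change -1.32, SE 0.11, limma adjusted p = 0.0464). The summed level of these markers was 38.95 to 40.1 in KO and 45.6 to 51.3 in WT, and Klrk1 was above background on no array. Of 14 macrophage and dendritic cell markers tested (of 16 listed), 4 lay lower in KO without overlap (28.6%, against 11.8% of all genes). Without overlap, 1 lay higher (7.14%, against 7.56% of all genes). The summed level of this list was 329.9 to 400.1 in KO and 414.4 to 476 in WT, and Clec4f was above background on no array. Epidermis (14 of 15) and dermal fibroblast markers (13 of 13) gave summed levels of 1976 to 2028 and 2149 to 2486 in KO, against 2039 to 2608 and 2426 to 2765 in WT. In whole skin, fewer cells of a type and less RNA per cell cannot be told apart.

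Of the 49 members with a probe, 28 could be measured in these skins, and the other 21 were at or near background on at least 1 array of each genotype. A gene was tested when a probe was well above background on all 3 arrays of KO or of WT. All 4 Timps passed, as did 9 of 22 Mmps, 12 of 19 Adamts genes and 3 of 4 Adamtsl genes with a probe. Of the 28, 27 were well above background on all 6 arrays, and Adamts7, a protease that cleaves cartilage oligomeric matrix protein, on 5. The 21 genes that did not pass include all 4 collagenases: Mmp1a, Mmp1b, Mmp8, the neutrophil collagenase, and Mmp13, the main interstitial collagenase of mouse.

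Of these 21 genes, 14 were above background on no array by any probe. They include Mmp10 (stromelysin 2), Mmp20, an enamel protease, Mmp28 (epilysin), Adamts13, which cleaves von Willebrand factor, and Adamts20, mutated in belted mice with a white coat band. The other 7 were seen on some arrays. Mmp12, the macrophage elastase, was above background on 1 KO array and 2 WT arrays, reading -4.74, -4.52 and -4.48 in KO against -3.00, -4.71 and -2.74 in WT (log2 relative to the array's 75th percentile). Adamts4, an aggrecan-cleaving protease, was above background on 2 arrays of each genotype, and Mmp24 on 1 KO and 2 WT arrays. Mmp13, Mmp7 and Mmp8 were above background on 1 KO array each and on 0 WT arrays, and Adamts6 on 0 KO arrays and 1 WT array. No fold could be bounded for Mmp13, Mmp7 or Mmp8, each above background on only 1 array. For Adamts6 the bound was at least 1.09-fold, WT over KO, but only 1 WT array was above background. In the run of Mmp genes on chromosome 9, where 9 of 10 have a probe, Mmp3 was the only one to pass, and it was above background on all 6 arrays.

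**Figure D2:**
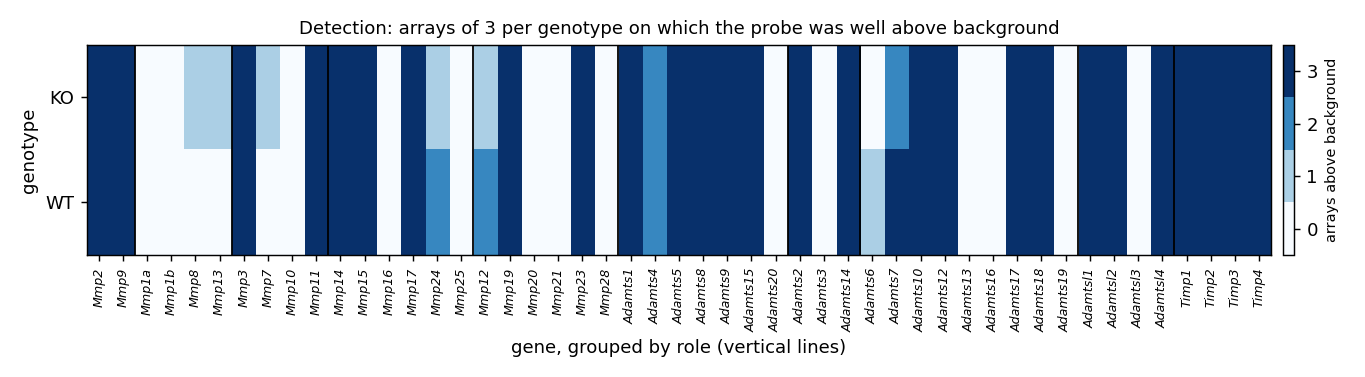
Number of arrays (0 to 3, shade) on which each of the 49 members with a probe was well above background, for KO (upper row) and WT (lower row), with genes grouped by role between vertical lines. The 4 Timps are dark in both rows, and the 4 collagenases are at 0 or 1 array in both.

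No member passed the test between KO and WT after adjustment over all genes, which does not show that their levels are alike. The limma test called 0 of the 28 tested members at an adjusted p of 0.05, against 5 of 22823 genes (0.0219%) on the whole array, of which 1 was higher in KO (0.00438%) and 4 lower (0.0175%), and the members' adjusted p ran from 0.274 to 0.994. At an unadjusted p under 0.05 there were 2 members, Adamts18 and Adamtsl1 (7.14%), both higher in KO, against 11.8% of all genes in either direction, 6.26% higher and 5.5% lower. KO and WT arrays did not overlap for 3 members, all higher in KO (10.7%, against 7.56% of all genes), and for 0 members lower in KO (against 11.8% of all genes). The size of the difference was under 0.5 log2 for 26 of the 28 (92.9%), against 86.4% of all genes. The median log2 fold change was -0.12 over the 28 members and -0.085 over all genes, with 19 members (67.9%) and 64.1% of all genes below 0. The 95% interval spanned 0 for 26 members and stayed within 1 log2 of 0 in both directions for 25, so differences over 2-fold are outside the interval of these 25. With 3 against 3 arrays an exact two-sided permutation test of a single gene cannot go below p = 0.1.

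**Figure D3:**
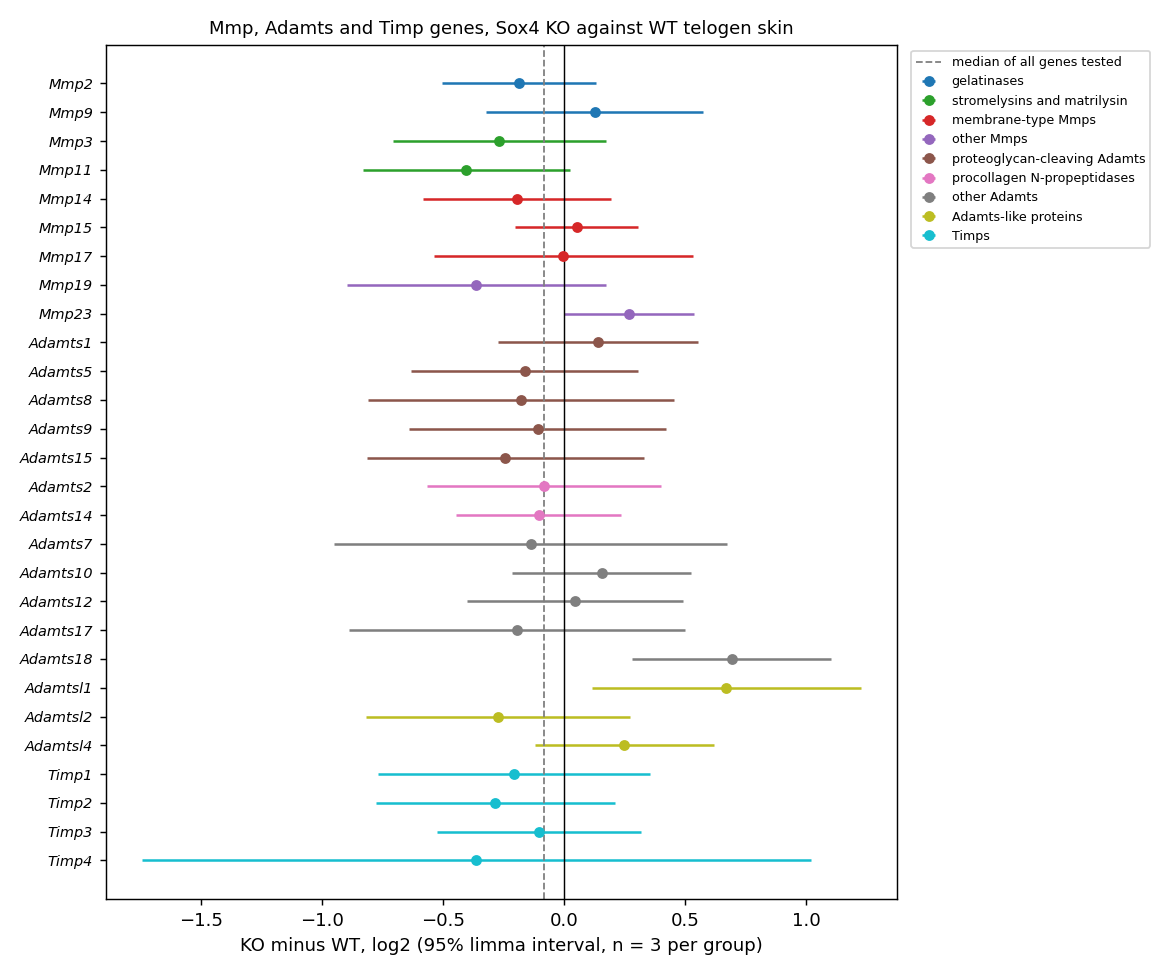
Log2 difference KO minus WT of the 28 tested members (points) with 95% limma intervals (bars), coloured by role; the dashed line is the median of all genes tested, -0.085. The intervals of Adamts18 and Adamtsl1 lie above 0, and that of Timp4 is the widest, from -1.75 to 1.02.

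The gelatinases, which cut denatured collagen and basement membrane collagen, overlapped between genotypes. Mmp2, made mainly by fibroblasts, read 4.90, 4.98 and 5.25 in KO against 5.20, 5.19 and 5.30 in WT. KO replicates 1 and 2 lay below every WT array and KO replicate 3 within them, for a log2 fold change of -0.19 (SE 0.13, 95% interval -0.51 to 0.13; limma adjusted p = 0.57). With arrays centred on the median in place of the 75th percentile, Mmp2 lay lower in KO without overlap. Mmp9, an enzyme of leukocytes and keratinocytes, read -0.47, -0.66 and -1.06 in KO against -0.79, -1.06 and -0.73 in WT (log2 fold change 0.13, SE 0.19; adjusted p = 0.762). Its KO arrays covered the whole WT range.

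The tested stromelysins had negative log2 fold changes, with overlap between groups. Mmp3 (stromelysin 1), which cleaves many matrix proteins and activates other proenzymes, read 3.89, 4.32 and 4.51 in KO against 4.65, 4.39 and 4.49 in WT, a log2 fold change of -0.27 (SE 0.18; limma adjusted p = 0.559). KO replicate 1 was the lowest of the 6 arrays and KO replicate 3 lay within the WT arrays. Mmp11 (stromelysin 3), first known from stroma around carcinomas, read 0.77, 1.02 and 0.74 in KO against 1.41, 0.91 and 1.42 in WT. Only WT replicate 2 fell among the KO arrays, and the log2 fold change was -0.40 (SE 0.18, 95% interval -0.83 to 0.02; adjusted p = 0.44). A dimmer Mmp11 probe gave -0.42, with -0.16, -0.09 and -0.33 in KO against 0.49, -0.16 and 0.37 in WT. Within slide 1 the difference of the brighter probe was -0.67 and within slide 2 it was -0.39.

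Of the membrane-type Mmps, which cut matrix at the cell surface, 3 of 6 were tested and none stood apart. Mmp14, the surface activator of pro-Mmp2, read 2.40, 2.49 and 2.45 in KO against 2.32, 2.76 and 2.84 in WT (log2 fold change -0.20, SE 0.16; limma adjusted p = 0.613). The KO arrays lay within 0.088 of each other and above WT replicate 1 but below the other WT arrays. Leaving out WT replicate 1 therefore fixes a lack of overlap in advance. In that fit Mmp14 had an unadjusted limma p under 0.05 (adjusted p = 0.257), and 303 genes were called on the whole array. The share of all genes at that unadjusted p is not given, so the value says nothing particular to Mmp14. Mmp15 and Mmp17 had log2 fold changes of 0.05 and -0.0037, with intervals of -0.20 to 0.31 and -0.54 to 0.53.

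Mmp23, a transmembrane Mmp without the hemopexin domain of its relatives, was the only Mmp with no overlap between groups. It read 2.86, 2.99 and 2.88 in KO against 2.54, 2.72 and 2.67 in WT, a log2 fold change of 0.27 (SE 0.11, 95% interval -0.00062 to 0.54; limma adjusted p = 0.426). The difference was 0.34 within slide 1 and 0.17 within slide 2. With arrays centred on the median the groups overlapped. Mmp19 read -3.04, -3.31 and -3.08 in KO against -2.38, -3.21 and -2.75 in WT (log2 fold change -0.36, SE 0.22; adjusted p = 0.535). WT replicate 2 lay between KO arrays, as it did for Mmp11.

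Adamts18 had the smallest p of all members. This protease of the Adamts family, whose substrates are little known, read -2.91, -3.09 and -3.28 in KO against -3.57, -4.06 and -3.74 in WT. All 3 KO arrays lay above all 3 WT arrays, with means of -3.09 ± 0.19 in KO and -3.79 ± 0.25 in WT (SD, n = 3 each). The log2 fold change was 0.69 (SE 0.17, 95% interval 0.28 to 1.11; limma unadjusted p = 0.00579, adjusted p = 0.274), or 1.62-fold. The probe was dim, with signals of 50.7 to 80.6 units in KO and 29.3 to 32.8 units in WT. With normexp background correction and quantile normalization the value was 0.24 (adjusted p = 0.423). Within slide 1 the difference was 0.29 and within slide 2 it was 0.99, and with slide as a block, where KO replicate 2 adds nothing, it was 0.69 (adjusted p = 0.566).

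Adamtsl1 (punctin), a secreted matrix protein without protease domain, was the other member with an unadjusted p under 0.05. It read 0.70, 0.44 and 0.57 in KO against 0.29, -0.58 and -0.0088 in WT, and the groups did not overlap. The log2 fold change was 0.67 (SE 0.23, 95% interval 0.12 to 1.23; limma adjusted p = 0.363), or 1.59-fold, with 0.28 within slide 1, 0.997 within slide 2 and 0.69 with slide as a block (KO replicate 2 adding nothing). Without WT replicate 2, the lowest array, it was 0.43. A second probe was above background on 1 KO array and on 0 WT arrays, with no fold to be bounded. For Adamts18 and for Adamtsl1, WT replicate 1 was the WT array nearest to KO, as it was for the skeletal muscle score given above. Of 10 peripheral nerve markers, all tested and none called, 4 lay higher in KO without overlap (40%, against 7.56% of all genes) and 1 lower. Their summed level was 56.48 to 62.1 in KO and 53.4 to 56.51 in WT, with overlap. The part of muscle and nerve in these values was not tested.

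**Figure D4:**
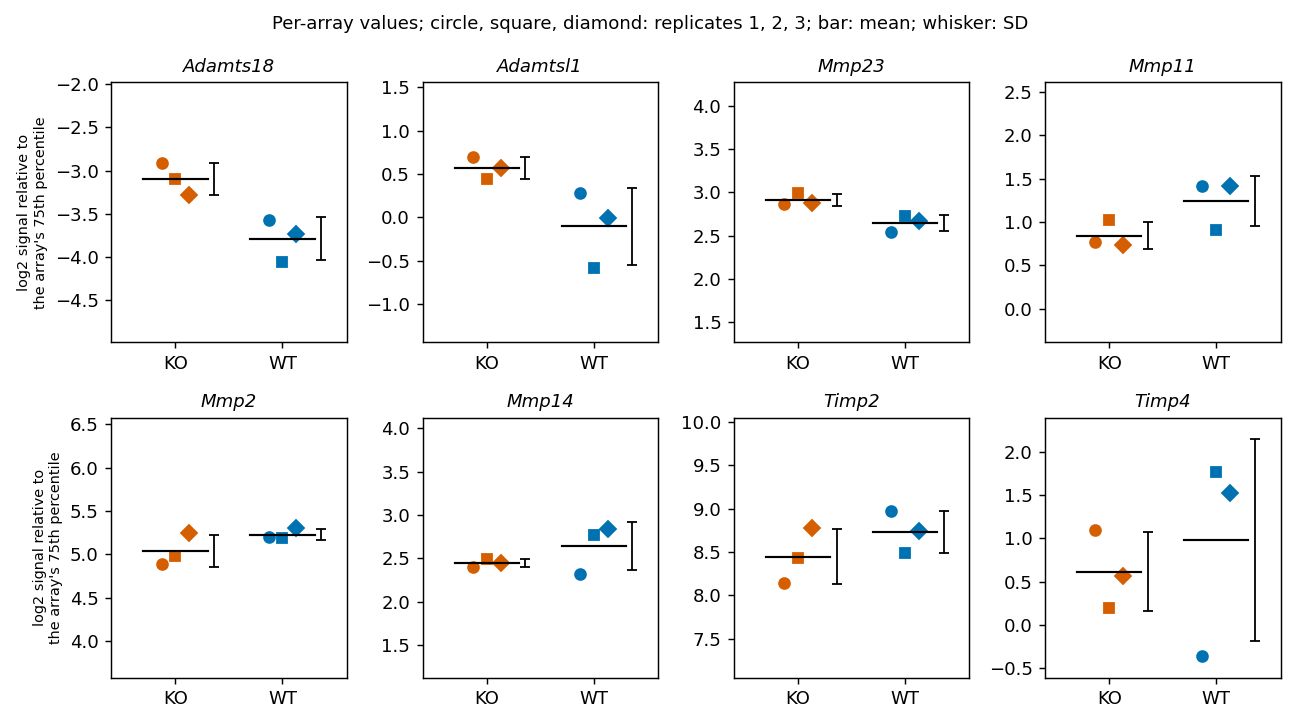
Per-array log2 signal relative to the array's 75th percentile for 8 members, KO left and WT right in each panel, with the mean (bar) and SD (whisker); each vertical axis spans 3 log2 units. KO and WT are apart for Adamts18, Adamtsl1 and Mmp23 and overlap for the others, and WT replicate 1 of Timp4 stands below the other arrays.

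The proteoglycan-cleaving Adamts genes, which cut versican and aggrecan, were tested for 5 of 7 members and none had separate groups. Adamts5 read -0.16, -0.12 and -0.15 in KO, against -0.35, 0.01 and 0.39 in WT (log2 fold change -0.16, SE 0.20; limma adjusted p = 0.713). Its KO arrays lay within 0.032 of each other and inside the WT range, and a dimmer probe gave -0.33 with overlap. Adamts15 read -0.31, -0.72 and -0.51 in KO against 0.11, -0.74 and -0.18 in WT (-0.24, SE 0.24; adjusted p = 0.659), again with WT replicate 2 at the KO level. Of these 5 genes, Adamts8 and Adamts9 had the widest KO ranges, 0.91 and 0.83 log2. Adamts8 read -2.09, -2.23 and -1.32 in KO against -1.54, -1.61 and -1.96 in WT, and Adamts9 read -1.05, -1.42 and -1.88 in KO against -1.44, -1.18 and -1.40 in WT. KO replicate 3 was the highest array for Adamts8 and the lowest for Adamts9, and the log2 fold changes were -0.18 (SE 0.26) and -0.11 (SE 0.22). A dimmer Adamts8 probe gave 0.0081, so its probes differed in sign. Adamts1, the remaining one, had 0.14 (SE 0.17).

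Adamts2 and Adamts14, which remove the N-propeptide of fibrillar procollagens, were close to 0 with log2 fold changes of -0.08 (95% interval -0.57 to 0.40) and -0.11 (-0.45 to 0.24). Adamts3, their relative known in mouse from lymphatic vessels, was not above background. The probes of Adamts2 differed in sign (-0.08 and 0.10), and both overlapped between groups. Among the other Adamts genes, Adamts10, which binds fibrillin microfibrils, read -1.64, -2.06 and -2.03 in KO against -2.04, -2.20 and -1.96 in WT (0.16, SE 0.15; limma adjusted p = 0.664). Adamts7 read -2.93, -4.13 and -3.46 in KO against -2.93, -3.52 and -3.66 in WT (-0.14, SE 0.34), the widest KO range of any tested member at 1.199 log2. Adamts17, linked like Adamts10 to fibrillin disorders in humans, read -2.09, -2.07 and -2.89 in KO against -2.02, -2.58 and -1.86 in WT (-0.19, SE 0.29; -0.38 by a dimmer probe). Adamts12 had 0.04 (SE 0.19). Among all of these, only Adamts18 separated the groups.

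Adamtsl4 and Adamtsl2, which bind fibrillin-1, lay on opposite sides of 0. Adamtsl4 read 2.10, 2.19 and 2.30 in KO against 2.22, 1.75 and 1.88 in WT (log2 fold change 0.25, SE 0.15; limma adjusted p = 0.536), with only WT replicate 1 at the KO level. Adamtsl2 read -2.57, -3.06 and -2.63 in KO against -2.90, -2.25 and -2.28 in WT (-0.27, SE 0.23; adjusted p = 0.612), again with WT replicate 1 among the KO arrays. Leaving out WT replicate 1, the only WT array at the KO level, fixes a lack of overlap for both in advance. In that fit each had an unadjusted limma p under 0.05, with adjusted p of at least 0.134 for every member. On the whole array 303 genes were called in it. The share of all genes at that unadjusted p is not given, so the values say nothing particular to these 2 genes.

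The 4 Timps were measured on all arrays, had negative log2 fold changes (as had 64.1% of all genes) and overlapped between genotypes. For each of the 4 the sign turned under at least 1 alternative. Timp2, which blocks Mmp2 and also helps Mmp14 activate it, read 8.14, 8.43 and 8.78 in KO against 8.97, 8.49 and 8.74 in WT (log2 fold change -0.28, SE 0.21, 95% interval -0.78 to 0.21; limma adjusted p = 0.573). Its dimmer probe gave -0.19. Timp3, the matrix-bound inhibitor that also blocks Adam17 and aggrecanases, read 5.02, 5.12 and 5.57 in KO against 5.49, 5.27 and 5.26 in WT (-0.10, SE 0.18; adjusted p = 0.794). KO replicate 1 was the lowest array and KO replicate 3 among the highest for both genes.

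Timp1, the inducible inhibitor that binds Mmp9, read 0.26, 0.13 and 0.16 in KO against 0.73, -0.14 and 0.58 in WT (log2 fold change -0.21, SE 0.23; limma adjusted p = 0.698). The KO arrays lay within 0.13 of each other and between the WT arrays, whose range was 0.87. Timp4, known from heart, muscle and adipose tissue, varied most of all tested members. It read 1.09, 0.19 and 0.56 in KO against -0.36, 1.77 and 1.53 in WT, a WT range of 2.13 log2 (log2 fold change -0.36, SE 0.58, 95% interval -1.75 to 1.02; adjusted p = 0.779). Within slide 1 the Timp4 difference was 0.92. White adipocyte markers (10 of 10 tested) were also lowest on WT replicate 1: their median score was 0.16, -0.57 and -0.32 in KO and -0.87, 0.36 and 0.38 in WT. Their summed level was 410.2 to 624.3 in KO and 259.4 to 591.6 in WT, and none was absent. The part of fat in the Timp4 values was not tested.

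Protease and inhibitor can be compared within an array, which removes the array's scale. The log2 difference Mmp2 minus Timp2, set to its WT mean, was 0.26, 0.05 and -0.02 in KO against -0.27, 0.20 and 0.07 in WT. For Mmp14 minus Timp2 it was 0.35, 0.15 and -0.24 in KO against -0.56, 0.36 and 0.19 in WT. For Mmp9 minus Timp1 it was 0.52, 0.46 and 0.02 in KO against -0.27, 0.33 and -0.06 in WT, a shift of 0.33 with overlap. The exact two-sided permutation p was 0.7, 0.9 and 0.2 for the 3 pairs in that order, and 0.9 for Mmp3 minus Timp1 and 1 for Adamts5 minus Timp3, before any adjustment over the 5 pairs.

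**Figure D5:**
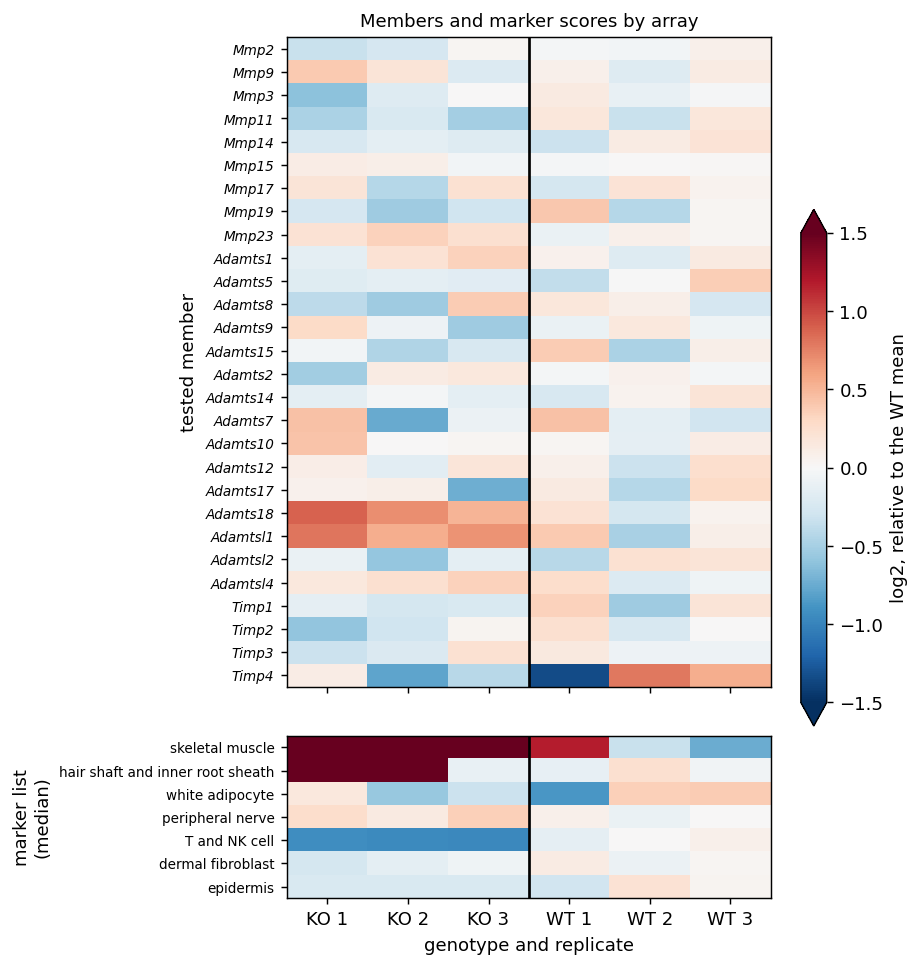
Upper panel: log2 value of each tested member on each array minus its WT mean; lower panel: median of the same quantity over marker lists; KO arrays left of the black line and WT arrays right. Colours saturate at 1.5 log2. Adamts18 and Adamtsl1 are high on all 3 KO arrays, and Timp4 is low on WT replicate 1, where the white adipocyte score is -0.87.

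Related genes were described from lists of other inhibitors, proteases, activators, substrates and inducers, and none of their members was called. Of 12 Adam family proteases, 10 were tested, 8 with negative fold changes (80%, against 64.1% of all genes) and a median of -0.18. Adam8, a leukocyte sheddase, had a log2 fold change of -0.44 (SE 0.13; limma adjusted p = 0.305), Adam12 -0.74 (SE 0.28) and Adam10, the main Notch sheddase, -0.27 (SE 0.12). KO arrays lay below WT arrays for these 3 of 10 (30%, against 11.8% of all genes). Adam8 read 1.45, 1.25 and 1.49 in KO against 1.84, 1.71 and 1.96 in WT. Leukocyte markers differed in both directions. Of 12 T and NK cell markers, 10 lay lower in KO without overlap (83.3%, against 11.8% of all genes), with a median of -0.94. Of 14 macrophage and dendritic cell markers 4 did (28.6%), among them Ms4a7 (-0.67), Itgax (-0.53) and Adgre1 (-0.45), while Cd163 lay higher without overlap (0.83). Neutrophil markers (8 tested, 6 positive, median 0.18) and mast cell markers (6 tested, 6 positive, median 0.23) leaned the other way, each with overlap. The part of leukocytes in the Adam8 value was not tested.

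Among 32 proteoglycan and elastic fibre substrates, 31 were tested with a median of -0.095, and 4 lay lower in KO without overlap (12.9%, against 11.8% of all genes). Mfap4, a microfibril protein, read 5.12, 5.22 and 5.40 in KO against 5.78, 6.18 and 5.99 in WT (log2 fold change -0.74, SE 0.15; limma adjusted p = 0.274). Ltbp2, a fibrillin-binding protein, had -0.59 (SE 0.19). Ncan, a proteoglycan core protein, was well above background on 2 KO arrays and 3 WT arrays and read -3.88, -5.24 and -4.28 in KO against -3.42, -2.46 and -2.44 in WT, so its size in KO is uncertain. Vcan, the Adamts substrate versican, had -0.37 (SE 0.18) with overlap. Of 23 collagen and collagen processing genes, all were tested with a median of -0.06. Plod2, a collagen lysyl hydroxylase, had 0.65 (SE 0.16; adjusted p = 0.274; well above background on 3 KO arrays and 2 WT arrays) and Col1a1 -0.24 (SE 0.11), both without overlap. Of the 23, 2 lay higher in KO without overlap (8.7%, against 7.56% of all genes) and 1 lower (4.35%, against 11.8% of all genes).

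The other 4 lists differ in size. In the plasminogen and astacin lists 0 genes lacked overlap, against 7.56% of all genes higher and 11.8% lower in KO. Of 9 genes listed as other inhibitors 5 were tested (median -0.10). This list and its median also include enhancers of procollagen C-proteinase, which are not inhibitors. Pcolce, such an enhancer, had 0.26 without overlap, while Reck, a membrane-anchored Mmp inhibitor, had 0.19 with overlap. Pcolce was the only gene of the 5 without overlap (20%, against 7.56% of all genes higher in KO). Of 19 plasminogen system genes and proenzyme activators 18 were tested (median -0.03). Serpine2, a secreted serine protease inhibitor, had a log2 fold change of 0.64 (SE 0.24) and Ctsg, the serine protease cathepsin G, -0.61 (SE 0.31), both with overlap. Of 9 astacin and related metalloenzymes 6 were tested (median -0.16), and the carboxypeptidase-like Cpxm1 and the IGF-binding protein protease Pappa2 had -0.28 and -0.55, both with overlap. Of 17 transcription factors known to induce Mmp genes 15 were tested (median -0.12). Fosl2, a partner in AP-1, read 3.21, 3.38 and 3.32 in KO against 3.51, 3.63 and 3.57 in WT (-0.27, SE 0.11; limma adjusted p = 0.423), and Etv5 had 0.26 (SE 0.11), both without overlap. Of the 15, 6.67% lay lower and 6.67% higher in KO without overlap, against 11.8% and 7.56% of all genes. Over the 7 lists of related genes the smallest adjusted p was 0.274.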

How the data were processed

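Skin RNA of 3 KO and 3 WT mice was measured on 1 array each; ages within a group differ, and each sample was taken as 1 animal. Spot intensity in the deposited scanner files comes from Agilent Feature Extraction 11.5.1.1, per the file headers; the processed signal used here is background-subtracted and detrended, with no normalization between arrays. Flags of the other kind, coded 0 or 1 and deposited in the same files, give each spot's state: above background, saturated or outlying. A table of log2 values that the authors deposited was not used for comparisons: over 30082 probes, centred per probe, each of its columns followed an array of the other genotype (correlation 0.887 to 0.931) and correlated at -0.583 to -0.192 with the array of its heading.

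Spots of a probe were averaged as log2 processed signal without outlier spots, and scaled by subtracting the 75th percentile of the array's non-control probes; slides come from the scanner barcodes. Accessions were matched without versions to RefSeq (GRCm38.p6), naming 27497 of 55650 probes; the array grid refers to mm9, so only names and gene order were taken from that table, and the printed windows are RefSeq's. A probe was kept if all 3 arrays of KO or of WT were well above background, and the brightest kept probe stood for its gene. KO was set against WT in limma 3.58.1 under R 4.3.3 (lmFit, eBayes, no covariate), Benjamini-Hochberg adjusted over all 22823 features at 0.05, two-sided; the script was tested on simulated data. Precision is limited by 3 arrays per group. Members, lists and alternatives were chosen with earlier results of these data known. Values on all arrays are given for called members, the 15 with the smallest p, the Timps, Mmp2, Mmp9 and Mmp14, the 5 with the widest KO and 3 with the widest WT range; of each related list, genes among the 4 with the smallest p are named. The planned normexp on mean signals used median signals, since the files hold no mean signal. One gene of a related list is not reported here.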

Additional observations from a re-analysis of the deposited data

How the results depend on the processing

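No alternative called a member (0 in every fit). Replicate numbers do not pair the animals (same-number correlations of deviations -0.13, -0.04 and 0.08); with the replicate block 0 of all genes and 0 members were called, and Sox4 stayed at -3.56 with adjusted p = 0.103, its call lost. Genes called on the whole array, 5 as reported, numbered 15 with arrays centred on the median, 8 with normexp and quantile normalization (chosen after seeing the data), 2 without the filter on dim probes, 9 with probes above background on all 6 arrays, 1 with slide as a block, 141 with age as a covariate and 0 with KO replicate 3 as the only KO array; with 1 array left out they ran from 2 (on leaving out KO replicate 2 or either of WT replicates 2 and 3) to 303 (without WT replicate 1), with 88 without KO replicate 3 and 3 without KO replicate 1. With KO replicate 3 alone, a lone sample assumed to vary like WT, Sox4 was -3.66 and the members' median was -0.020. The members' median was 0.079 within slide 1 and -0.0090 within slide 2. Members without overlap numbered 3 to 5 higher and 0 to 5 lower with 1 array left out (5 lower on leaving out KO replicate 3 or either of WT replicates 1 and 2, and 5 higher on leaving out either of KO replicates 1 and 3), and 1 was lower with median centring and 1 without the filter. With fewer arrays a lack of overlap is likelier for any gene. The share over all genes in these fits is not given, so the counts say nothing particular to the members. Over the fits with 1 array left out the median ran from -0.16 to -0.092.

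No named member crossed the threshold, but sizes did change. Of 373 values of the 22 named members under alternatives, 31 had the opposite sign (13 within a slide, in 13 genes, and 18 in other fits), 105 kept the sign and lay over 1.5 times away, and 237 lay within 1.5 times. Within a slide the opposite signs reached 0.92 for Timp4 and 0.66 for Adamts7. With KO replicate 3 alone the log2 fold change was 0.0035 for Mmp3, 0.024 for Mmp2, 0.044 for Timp2, 0.23 for Timp3, -0.21 for Mmp9 and 0.38 for Adamts8. Slide as a block gave 0.079 for Timp4 and 0.15 for Adamts7; age as a covariate gave 0.10 for Adamts9 and 0.14 for Adamts17, and larger sizes of -1.49 for Timp4, -0.80 for Adamtsl2 (unadjusted p under 0.05), -0.52 for Adamts5 and -0.44 for Mmp14. With 1 array left out the ranges were -0.35 to 0.025 for Adamts5, -0.27 to 0.0039 for Timp3, -1.03 to 0.032 for Timp4, -0.0058 to 0.29 for Mmp9, -0.43 to 0.17 for Adamts7, -0.31 to 0.10 for Adamts9 and -0.41 to 0.075 for Adamts17; with no change of sign they were -0.47 to -0.037 for Timp1, -0.48 to -0.054 for Adamts15, -0.58 to -0.16 for Mmp19 and -0.45 to -0.13 for Timp2. The cause was not tested. Members near background, 21 of 49, cannot be compared at this signal.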

Other observations

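Over the 28 tested members, KO replicates 1, 2 and 3 were the highest of the 6 arrays for 7, 1 and 6 members and the lowest for 5 each, while WT replicates 1, 2 and 3 were the highest for 5, 2 and 7 and the lowest for 5, 8 and 0. Among all genes, KO replicates 1, 2 and 3 were the highest for 8.57%, 16.0% and 13.9% and the lowest for 21.6%, 27.1% and 10.35%. WT replicates 1, 2 and 3 were the highest for 14.8%, 29.1% and 17.6% of all genes and the lowest for 14.1%, 16.9% and 9.98%. The counts of members were not tested against these shares. The Fos and Jun motif was found upstream of Mmp genes that were mostly below background, and 1 of the 19 windows of tested members held it (Mmp3), against 7 of the 20 windows of members with no tested probe.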
